A study of Mus musculus with 12 samples.

Results

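Keratins are the intermediate filament proteins of epithelial cells, and the 7 genes described here, *Krt5*, *Krt7*, *Krt8*, *Krt18*, *Krt19*, *Krt20* and *Krt23*, were grouped as keratins of simple, ductal and urothelial epithelia of the kidney, with no measurement here of the cells that carry them. They were chosen by gene symbol from a table of 35275 mouse genes that lists 51 keratin genes, and each of the 7 symbols had a single row. Kidney RNA was sequenced from 12 mice in 3 groups of 4. All the mice were of the C57BL/6J strain, 6 months old and without a drug treatment in the labels, and each group held 2 males.

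The WT mice carried unaltered *Pkd1* and *Casp1*. The RC/RC mice were homozygous for a hypomorphic missense allele of *Pkd1* that is present in every cell and gives slowly progressive cystic disease. The RC/RC:*Casp1*KO mice carried the same *Pkd1* allele and, in every cell as well, a small deletion in *Casp1* that removes the codon of the active-site cysteine and a splice donor. That deletion was a single edited line bred to homozygosity, and no WT mice with the *Casp1* deletion were among the samples, so the data hold no value for the deletion in kidneys without the RC allele. The RNA came from kidney tissue and not from sorted cells. The data columns name each mouse by its group and a mouse number but not by its sex, and so no value is given by sex.

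Keratins form filaments only as pairs of a type II (basic) and a type I (acidic) protein, and the type II genes of the mouse cluster on chromosome 15 and the type I genes on chromosome 11. *Krt18* is the exception, a type I gene that sits beside its type II partner *Krt8*. KRT8 and KRT18 are the pair of simple, single-layered epithelia, including renal tubules. KRT7 (type II) and KRT19 (type I) are added in ducts, and in the kidney they mark the collecting system and the cells lining many cysts. KRT20 (type I) is known from intestinal epithelium and the umbrella cells of the urothelium, KRT23 (type I) from glandular epithelia and stressed liver, and KRT5 (type II) from the basal layer of stratified epithelia, which includes the urothelium of the renal pelvis.

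The genes are given in the coordinates of the deposited table, whose submitters' notes name the mm10 build. On chromosome 15 were *Krt5* (101707070 to 101712891, minus strand), *Krt7* (101411043 to 101430313, plus strand), *Krt8* (101996711 to 102004342, minus strand) and *Krt18* (102028216 to 102032026, plus strand). On chromosome 11 were *Krt19* (100140810 to 100148665, minus strand), *Krt20* (99428403 to 99438150, minus strand) and *Krt23* (99477974 to 99493137, minus strand). *Krt8* and *Krt18* therefore lay head to head, transcribed away from each other. No other gene of the table overlapped any of the 7. Near copies of at least 95% identity over at least 100 bases were found among reference transcripts for *Krt8* (a pseudogene, *Krt8-ps*, 98.6% identical over 941 bases, and *Gm36026*), *Krt19* (*Gm73150*) and *Krt5* (*Gm49428* and *Gm55161*). None of these copies has a row in the count table, so reads shared with them could not be separated.

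The sequence just before the start of transcription is shown for the 3 keratins that were called higher in RC/RC than in WT kidneys, so that their proximal promoters can be compared. The letters are from RefSeq (GRCm38.p6, the same build) and cover the 150 bases that end 1 base before the first transcribed base, 5′ to 3′ on the strand of the gene: chr15:102004343-102004492 for *Krt8*, chr15:102028066-102028215 for *Krt18* and chr11:99438154-99438303 for *Krt20*. Capitals mark the matches on either strand to CATTCC (or GGAATG), the TEAD motif, and to TATAAA, the TATA box.
Krt8: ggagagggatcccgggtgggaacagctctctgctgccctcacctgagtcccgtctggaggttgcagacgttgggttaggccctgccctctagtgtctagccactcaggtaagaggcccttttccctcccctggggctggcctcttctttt
Krt18: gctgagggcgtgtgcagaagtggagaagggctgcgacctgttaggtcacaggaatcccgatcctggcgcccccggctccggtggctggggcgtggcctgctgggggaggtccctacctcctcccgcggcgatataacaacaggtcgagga
Krt20: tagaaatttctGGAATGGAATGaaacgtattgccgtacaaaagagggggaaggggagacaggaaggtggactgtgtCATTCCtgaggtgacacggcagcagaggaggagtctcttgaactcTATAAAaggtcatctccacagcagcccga

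Of the 7 keratins, 6 had a promoter in the RefSeq table. The 250 bases before the start were searched on both strands in those 6 and in all 32851 promoters, for the TEAD motif CATTCC, for the TATA box and for TGANTCA, the AP-1 motif. *Krt20* was the only one of the 6 with any match. It held CATTCC 3 times, beginning 139, 134 and 74 bases before the start, with the first 2 sharing a base, and TATAAA once at 29 bases before the start. At least 1 CATTCC was present in 12.6% of all promoters and at least 3 in 0.0913%, TATAAA was present in 12.4%, and TGANTCA, found in none of the 6, in 6.75%. These are matches of letters, and no binding was measured.

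The libraries held 18019819 to 24869454 counted reads, and mitochondrial genes took 7.78% to 12.1% of them. Levels are given as CPM, the reads of a gene scaled to a common library total with TMM factors over the 12 libraries, and where genes are compared with each other, as FPKM, which also divides by gene length. In these libraries 3 reads corresponded to 0.115 to 0.166 CPM. *Casp1*, which encodes the protease caspase-1, was measured at 2.06, 1.29, 1.30 and 1.41 CPM in WT mice A to D, lettered here in the order of the table and so kept throughout. It was at 3.37, 3.84, 4.26 and 2.62 CPM in RC/RC mice A to D, and at 0.385, 0.664, 0.665 and 1.05 CPM in RC/RC:*Casp1*KO mice A to D. Every mouse labelled as a knockout was thus below every other mouse, with 10 to 23 reads remaining. Reads from exons outside the deletion still count towards the gene, so this level does not measure intact transcript. By edgeR's quasi-likelihood test *Casp1* was higher in RC/RC than in WT (log2 fold change 1.21 ± 0.25 SE, adjusted p = 0.0142) and lower in RC/RC:*Casp1*KO than in RC/RC (-2.35 ± 0.32, adjusted p = 0.00514), whereas the difference from WT (-1.12 ± 0.35) had an adjusted p of 0.128 in edgeR and passed in DESeq2 (-1.16, adjusted p = 0.0481).

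The mice of a group were not equally alike. A chi-square of the counts of 2 mice over all genes, per degree of freedom, was 17.7 between WT mice A and B and 16.4 between C and D, but 89.8 to 127 between these pairs. It was 15.7 between RC/RC:*Casp1*KO mice A and B and 31.8 between C and D, but 67.1 to 93.4 between the pairs. Among RC/RC mice it was 37.2 between C and D and 67.6 to 128 for all other pairs. The columns carry no sex or batch by which mice of different groups could be matched, so each fit counts this difference as spread between mice, and its part in the results was not tested.

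Seen per length, the 7 keratins spanned a wide range of abundance. *Krt8* was the most abundant, with a mean FPKM over the 12 mice of 78.0 ± 20.5 (SD), followed by *Krt7* (29.0 ± 8.01), *Krt18* (22.2 ± 12.7) and *Krt19* (5.12 ± 3.98). *Krt5* (1.32 ± 1.16), *Krt23* (1.23 ± 0.62) and *Krt20* (0.84 ± 0.818) stood close together at the bottom. *Krt8* exceeded *Krt7* in 12 of 12 mice, *Krt7* exceeded *Krt18* in 11, and *Krt18* exceeded *Krt19* in 12. The order of *Krt5*, *Krt23* and *Krt20* changed from group to group, and neighbours in that order overlapped in each. In WT, where they are not neighbours, *Krt23* (0.592 to 2.98 FPKM) lay above *Krt20* (0.0458 to 0.454 FPKM) without overlap. *Krt8* alone made up 56.3% of the summed FPKM of the 7 in WT, 54.3% in RC/RC and 60.3% in RC/RC:*Casp1*KO kidneys.

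**Figure D1:**
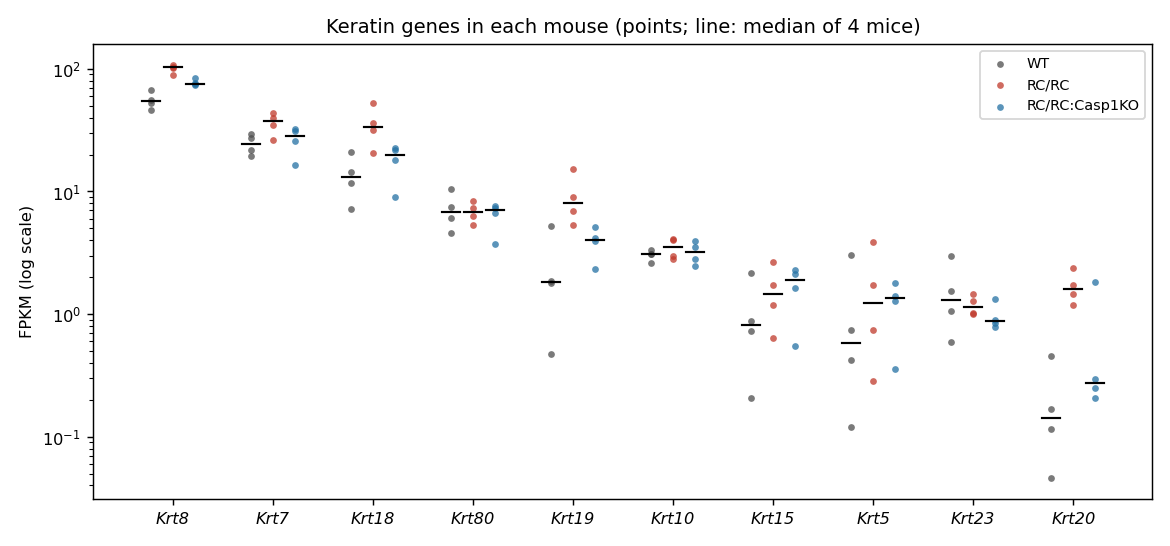
FPKM (log axis) of the 7 keratins and of the 3 other keratin genes with a mean of at least 1 FPKM, 1 point per mouse in WT (grey), RC/RC (red) and RC/RC:*Casp1*KO (blue) kidneys, with the median of 4 mice as a line. The order *Krt8*, *Krt7*, *Krt18* runs from means of 78.0 to 22.2 FPKM, while *Krt80* has means of 7.15, 6.85 and 6.36 FPKM, *Krt10* of 3.03, 3.49 and 3.20 FPKM and *Krt15* of 0.992, 1.56 and 1.65 FPKM in the 3 groups in that order.

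Across the other keratins of the table, 22 of 51 genes had no read in any mouse and 29 had at least 1. The 7 genes held 91.7% of the summed mean FPKM of all keratins. The most abundant of the others were *Krt80* (6.79 FPKM), *Krt10* (3.24 FPKM), a keratin of the upper epidermis, and *Krt15* (1.40 FPKM), of basal cells. Few of the 44 others were abundant enough to test, and of those tested (4, 5 and 5 in the 3 comparisons) edgeR and DESeq2 called 0 in each, with 0, 0 and 1 at an unadjusted p under 0.05. *Krt13*, which marks intermediate cells of stratified and urothelial layers, had no read in any RC/RC or RC/RC:*Casp1*KO mouse and 3 reads in all WT mice together.

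The comparison of RC/RC with WT kidneys asks how the keratins stand in the cystic kidney. All 7 passed edgeR's filter on low counts. *Krt8*, *Krt18* and *Krt20* were called higher in RC/RC (adjusted p under 0.05), against a background of 9.76% of the 15243 genes tested that were called higher, and 0 of 7 were called lower, against 3.18%. For 2 of the 7, *Krt8* and *Krt20*, every RC/RC mouse was above every WT mouse, which held for 12.7% of all genes tested, and for 0 of 7 was every RC/RC mouse lower, against 6.58%. The median log2 fold change of the 7 was 0.77, beside -0.02 over all genes tested. Whole-kidney RNA does not separate a larger share of keratin-bearing cells from more keratin RNA in each cell, here or in the comparisons that follow.

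**Figure D2:**
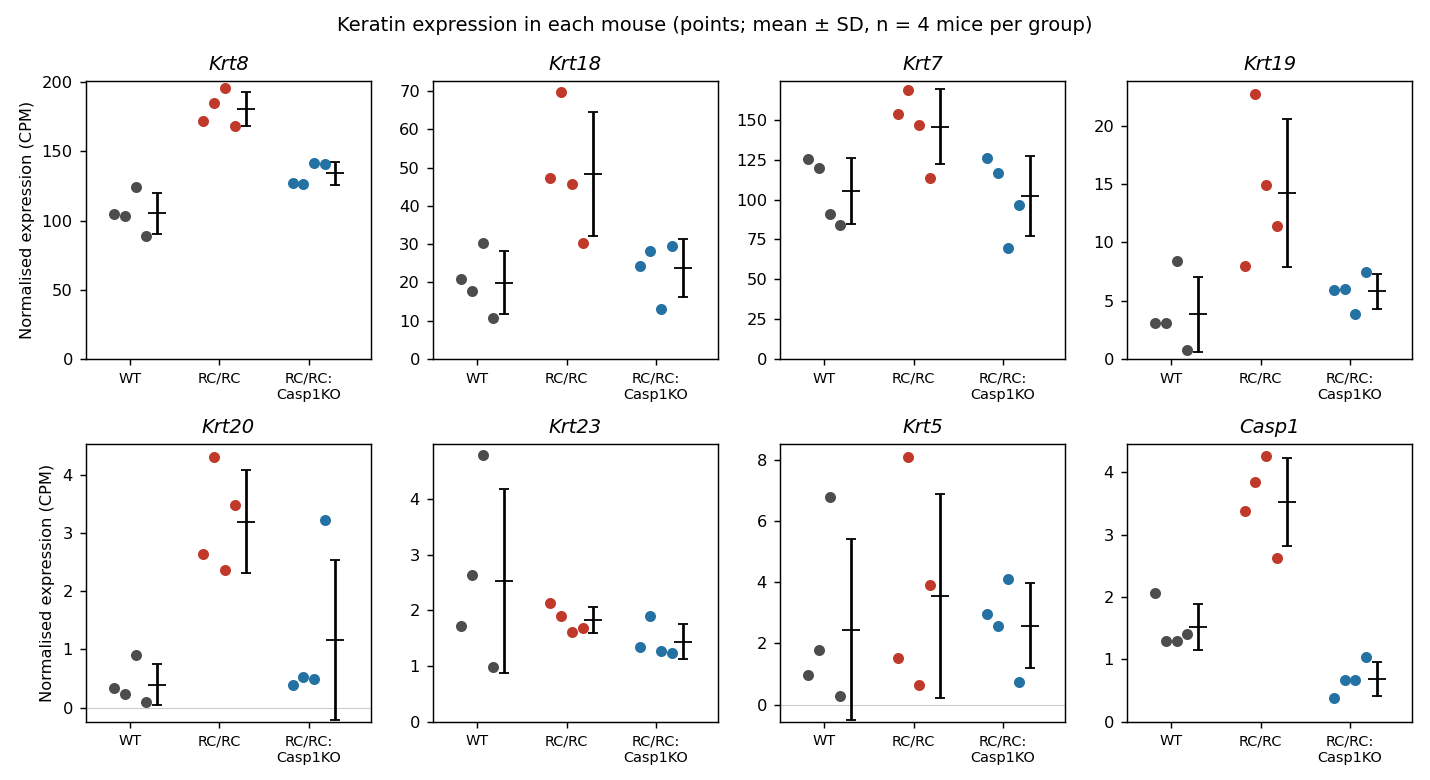
Normalised expression (CPM, linear axes) of the 7 keratins and *Casp1* in each of 12 mice (points), with mean ± SD of 4 mice beside each group. *Krt8* separates RC/RC (168.7 to 195.5 CPM) from both other groups, and 1 RC/RC:*Casp1*KO mouse (mouse D, 3.23 CPM) lies with the RC/RC mice for *Krt20*.

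The simple-epithelial pair rose in RC/RC kidneys. *Krt8* was at 104.6, 103, 125 and 88.7 CPM in WT mice A to D, and at 172, 185, 196 and 169 CPM in RC/RC mice A to D. The spread within each group was small beside the gap between them, and *Krt8* rose 1.71-fold (log2 fold change 0.77 ± 0.13 SE, adjusted p = 0.00549). *Krt18* was at 21.0, 17.8, 30.4 and 10.6 CPM in the WT mice and at 47.3, 69.6, 45.8 and 30.3 CPM in the RC/RC mice. The groups touched, since RC/RC mouse D lay just under WT mouse C, and *Krt18* rose 2.41-fold (1.27 ± 0.33, adjusted p = 0.0336). When single mice were omitted, the *Krt18* call was lost in 6 of 8 fits (RC/RC mice A, B and C and WT mice A, B and D), with adjusted p up to 0.0928, while *Krt8* kept its call in all 8. With the trend of expression on gene length removed, both edgeR calls remained at smaller log2 fold changes. *Krt8* stood at 0.60 (adjusted p = 0.0113) and *Krt18* at 1.06 (adjusted p = 0.0438).

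The ductal pair was less clear. *Krt7* was at 125, 120.1, 91.2 and 84.0 CPM in WT and 154, 169, 147 and 113 CPM in RC/RC mice. RC/RC mouse D fell within the WT range, and the difference of 1.38-fold (log2 fold change 0.47 ± 0.17) did not pass the test (adjusted p = 0.107). It passed with RC/RC mouse D omitted (0.57, adjusted p = 0.0490) and in none of the other 7 fits that omitted a mouse. *Krt19* was at 3.06, 3.06, 8.39 and 0.796 CPM in WT and 7.95, 22.7, 14.9 and 11.4 CPM in RC/RC mice. Only WT mouse C reached into the RC/RC range. Its difference was the second largest of the 7, 3.70-fold, but also one of the least precise (1.89 ± 0.58), and it missed the threshold in edgeR (adjusted p = 0.0635). Without WT mouse C it passed (2.60, adjusted p = 0.0145), and it passed with DESeq2 on all mice (adjusted p = 0.00498).

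*Krt20* had the largest fold change of the 7 and a low level. It was at 0.335, 0.239, 0.899 and 0.0937 CPM in WT mice, which is 7, 5, 18 and 2 reads, and at 2.64, 4.31, 2.37 and 3.48 CPM in RC/RC mice, which is 68, 82, 44 and 81 reads. Every RC/RC mouse was above every WT mouse. *Krt20* rose 8.09-fold (log2 fold change 3.02 ± 0.53, 95% interval 1.82 to 4.21, adjusted p = 0.00683), and it kept its call when any single mouse was omitted, with log2 fold changes of 2.69 to 3.78.

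The remaining pair gave no call. *Krt23* was at 1.72, 2.63, 4.79 and 0.984 CPM in WT and 2.13, 1.89, 1.62 and 1.68 CPM in RC/RC mice, with all RC/RC values inside the WT range (log2 fold change -0.47 ± 0.43, adjusted p = 0.490). *Krt5* was at 0.957, 1.77, 6.79 and 0.281 CPM in WT and 1.51, 8.10, 0.647 and 3.91 CPM in RC/RC mice. In both groups the mice spread over far more than the difference between the group means, and the 95% interval of the log2 fold change ran from -1.54 to 2.60 (adjusted p = 0.738), so that a sizeable change either way was not detectable with these mice.

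**Figure D3:**
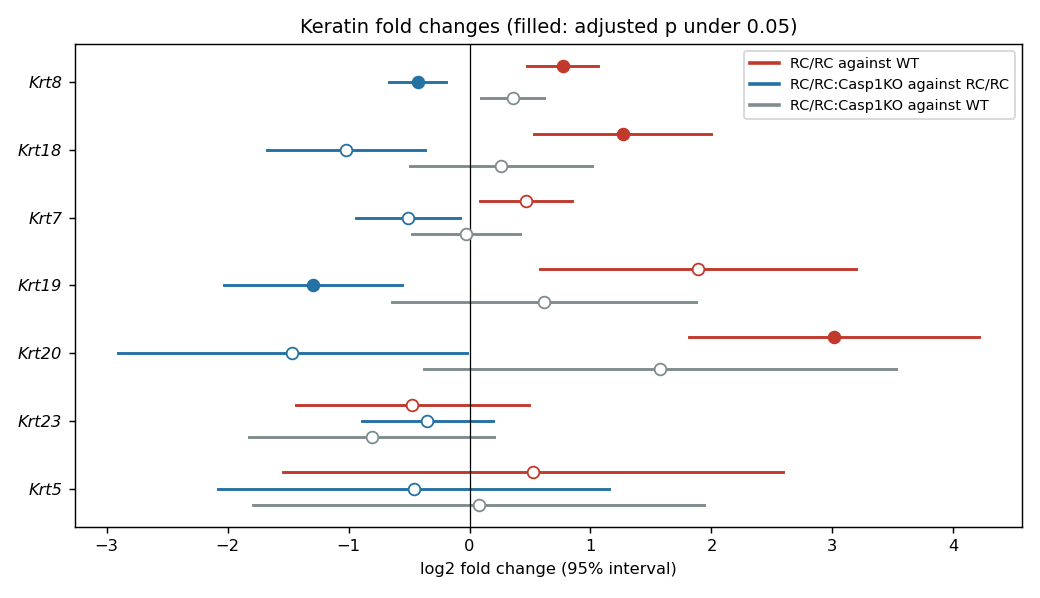
Log2 fold changes (horizontal axis) of the 7 keratins with 95% intervals in the 3 comparisons, from edgeR on 8 mice each, with filled points for an adjusted p under 0.05. The 3 filled red points (*Krt8*, *Krt18*, *Krt20*) are RC/RC over WT, the 2 filled blue points (*Krt8*, *Krt19*) lie below 0, and no grey point (RC/RC:*Casp1*KO over WT) is filled.

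The comparison of RC/RC:*Casp1*KO with RC/RC kidneys asks how loss of *Casp1* bears on the cystic kidney. It shares the 4 RC/RC mice with the comparison above, so the 2 are not independent. *Krt8* and *Krt19*, 2 of the 7, were called lower in RC/RC:*Casp1*KO, against a background of 4.41% of the 15428 genes tested, and 0 were called higher, against 7.23%. For 3 of the 7 (*Krt8*, *Krt18* and *Krt19*) every RC/RC:*Casp1*KO mouse was below every RC/RC mouse, which held for 9.18% of genes tested, and for 0 of 7 was every one above, against 11.3%. All 7 log2 fold changes were negative, with a median of -0.51 beside -0.03 over all genes tested.

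*Krt8* was at 127, 127, 141 and 141 CPM in RC/RC:*Casp1*KO mice A to D, between the WT and RC/RC values. It fell by 0.43 on the log2 scale (SE 0.10, adjusted p = 0.0338), to 0.742 of its RC/RC level. *Krt18*, at 24.2, 28.3, 13.0 and 29.5 CPM, lay below all RC/RC mice, although mouse D and RC/RC mouse D were close, and its log2 fold change of -1.02 ± 0.29 stood at the edge of the threshold (adjusted p = 0.0515). *Krt19*, at 5.93, 6.02, 3.82 and 7.50 CPM, fell by 1.29 on the log2 scale (SE 0.33, adjusted p = 0.0377).

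*Krt7* was at 126, 117, 69.9 and 96.8 CPM (log2 fold change -0.51 ± 0.19, adjusted p = 0.107). Mice A and B lay above RC/RC mouse D, so the groups overlapped. *Krt23* was at 1.35, 1.90, 1.27 and 1.23 CPM (-0.35 ± 0.24, adjusted p = 0.350), and *Krt5* at 2.96, 2.56, 4.10 and 0.727 CPM (-0.46 ± 0.72, adjusted p = 0.691). Neither separated the groups.

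*Krt20* was at 0.385, 0.522 and 0.498 CPM in mice A, B and C, within the WT range, and at 3.23 CPM in mouse D, within the RC/RC range. With all 4 mice the log2 fold change was -1.46 ± 0.64 (adjusted p = 0.153), and without mouse D it was -2.77 (adjusted p = 0.00725). Mouse D also stood apart from its group in the tubular injury genes *Havcr1* (41.9 CPM, against 6.09 to 13.0 CPM in the other 3) and *Lcn2* (62.1 CPM, against 4.65 to 12.7 CPM). It was the highest of its group in the summed leukocyte genes (224 CPM, against 125 to 169 CPM) and the summed fibroblast genes (563 CPM, against 278 to 395 CPM). Its *Krt19* (7.50 CPM) and *Casp1* (1.05 CPM) were the highest of the group and its *Krt5* (0.727 CPM) and *Krt23* (1.23 CPM) the lowest. Its *Krt8* and *Krt7* lay within the range of the other 3, and its *Krt18* just above it (29.5 against at most 28.3 CPM).

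The 2 calls in this comparison were narrow. With single mice omitted, *Krt8* kept its call in 2 of 8 fits (without RC/RC mouse A or D) and *Krt19* in 3 of 8 (without RC/RC mouse A or D or RC/RC:*Casp1*KO mouse D), with adjusted p up to 0.108 and 0.0932. *Krt18* gained a call without RC/RC mouse D (-1.18, adjusted p = 0.0325). Scaling by library size alone left 0 of 7 called (adjusted p of 0.0554 for *Krt8* and 0.0631 for *Krt19*), while DESeq2 called 3, *Krt18* in addition. Shorter genes were also lower as a class in RC/RC:*Casp1*KO, with a median log2 fold change of -0.20 among the 3002 tested genes of 1000 to 2000 bases, 0.11 among the 4188 of 4000 to 8000 bases and 0.33 among the 673 of 8000 bases or more. With that length trend removed *Krt19*, of 1576 bases, remained called (-1.13, adjusted p = 0.0428), and *Krt8*, of 1805 bases, did not (-0.32, adjusted p = 0.0666).

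In RC/RC:*Casp1*KO against WT kidneys edgeR called 0 of the 7 keratins higher and 0 lower, against backgrounds of 1.13% and 0.893% of the 15346 genes tested. At an unadjusted p under 0.05 there was 1 of the 7, *Krt8*, beside 3343 of the 15346 genes tested. DESeq2 called 0 of the 7 and 1390 genes in all. *Krt8* was the only 1 of the 7 for which every RC/RC:*Casp1*KO mouse was above every WT mouse, which held for 7.47% of genes tested, and for 0 of 7 was every mouse below, against 6.22%. Its log2 fold change was 0.36 ± 0.11 (95% interval 0.10 to 0.62, adjusted p = 0.138). Those of *Krt18* (0.26 ± 0.33), *Krt19* (0.61 ± 0.56) and *Krt7* (-0.03 ± 0.20) had intervals that spanned 0, as did *Krt20* (1.58 ± 0.86), *Krt23* (-0.81 ± 0.45) and *Krt5* (0.08 ± 0.82). The median over all genes moved from 0.01 to 0.14 with scaling by library size alone, and *Krt7* then stood at 0.11.

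The ratio of one keratin to another in the same kidney does not depend on library scaling, but a trend with gene length can enter it. In RC/RC against WT the median log2 fold change was 0.08 among genes of 1000 to 2000 bases and -0.10 among those of 4000 to 8000. *Krt7* has 4094 bases and *Krt19* 1576. *Krt8* exceeded *Krt18* in FPKM by a median of 4.18 (3.18 to 6.47) in WT, 3.07 (2.06 to 4.32) in RC/RC and 3.89 (3.48 to 8.42) in RC/RC:*Casp1*KO mice, so the pair lay nearer to equal levels in RC/RC, with overlapping ranges. The ratio of *Krt7* to *Krt19* had medians of 15.4, 3.82 and 7.25 in the 3 groups. It spanned 4.19 to 40.6 among WT mice, with mouse C the lowest, and 2.87 to 7.46 among RC/RC mice.

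Set against epithelial genes, *Krt8* separated RC/RC from the other groups over *Cdh16* but not over *Epcam*. *Krt8* over *Cdh16*, the kidney-specific cadherin of tubules, was 0.138 to 0.198 in WT, 0.238 to 0.383 in RC/RC and 0.171 to 0.222 in RC/RC:*Casp1*KO mice. By this ratio every RC/RC mouse was above all the mice of the other groups. Over *Epcam*, a general epithelial adhesion gene, *Krt8* overlapped between all groups (medians 1.15, 1.57 and 1.47), as did *Krt7* (0.469, 0.574 and 0.478). *Krt19* over *Epcam* had medians of 0.027, 0.160 and 0.066, and RC/RC mouse A (0.056) and WT mouse C (0.116) lay outside their groups' other values. Over *Aqp2*, the water channel of principal cells, *Krt7* had medians of 0.141, 0.081 and 0.099, the highest in WT, and *Krt19* of 0.0091, 0.0199 and 0.0128, the highest in RC/RC, with overlapping ranges for both.

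**Figure D4:**
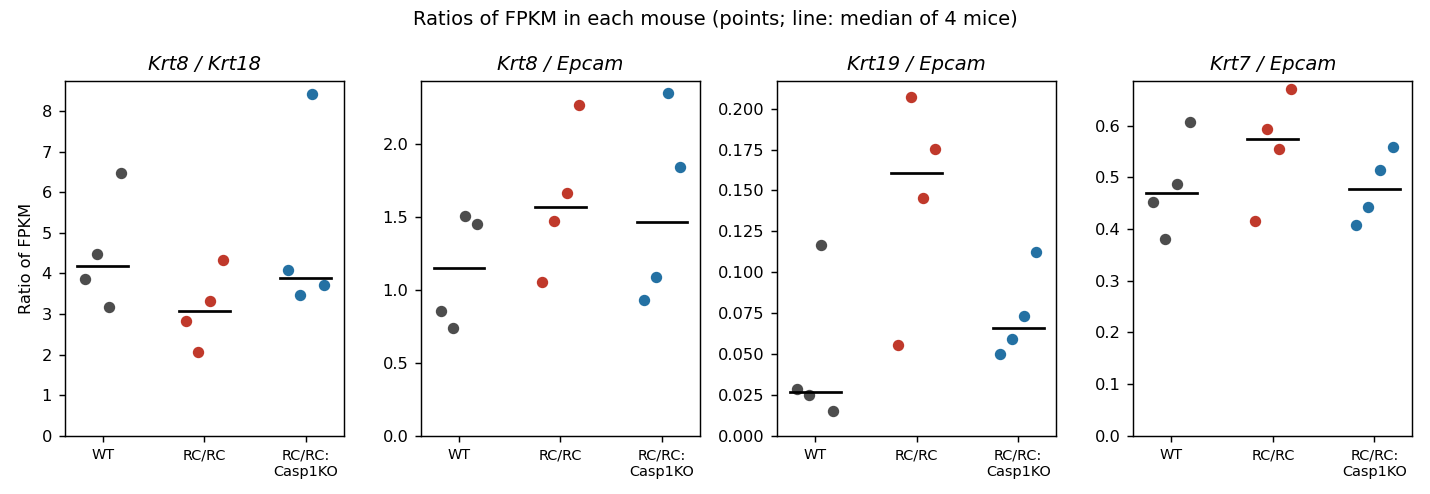
Ratios of FPKM within each kidney (points) for *Krt8* over *Krt18* and for 3 keratins over *Epcam*, with the median of 4 mice as a line. The median of *Krt19* over *Epcam* is 0.160 in RC/RC against 0.027 in WT, and the groups overlap in all 4 panels.

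The 7 keratins did not vary as a single unit across the 12 mice. On log2(CPM + 0.5), *Krt18* and *Krt19* had a Pearson r of 0.92, *Krt8* and *Krt19* of 0.90, *Krt8* and *Krt20* of 0.87 and *Krt8* and *Krt18* of 0.81. *Krt7* was closest to *Krt18* (0.79). *Krt5* ranged from 0.06 (with *Krt7*) to 0.53 (with *Krt19*), and *Krt23* from 0.03 (with *Krt8*) to 0.52 (with *Krt5*). These values describe 12 mice that include the 3 genotypes and carry no test.

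The genes with the most similar pattern to each keratin among 14163 genes were sought by the same measure over the 12 mice. They were *Ccdc109b*, *F3* and *Igkv12-44* for *Krt8* (r of 0.97, 0.96 and 0.95), *Spon1*, *Nbl1* and *Muc1* for *Krt18* (0.99, 0.97 and 0.97), and *Cldn7*, *Tmem123* and *Aida* for *Krt7* (0.97, 0.95 and 0.95). For *Krt19* they were *1500015O10Rik*, *Nbl1* and *Postn* (0.96, 0.94 and 0.93), and for *Krt20* *Bcl3*, *Apbb1ip* and *Wisp2* (0.97, 0.96 and 0.96). *Krt23* had the weakest likeness, to *Wnt9b*, *Grhl1* and *Slc25a14* (0.87, 0.81 and 0.80). Those of *Krt5* were *Upk3a*, *Upk1b* and *Krt15* (0.95, 0.92 and 0.89), that is, genes of the urothelium and of basal cells, and not of tubules.

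The urothelium of the renal pelvis is a possible part of a kidney sample, and its uroplakin genes *Upk1a*, *Upk1b*, *Upk2* and *Upk3a* coat the umbrella cells. Their summed level was 6.55, 6.08, 28.3 and 2.01 CPM in WT mice A to D. It was 8.84, 24.1, 7.18 and 15.7 CPM in RC/RC mice A to D, and 14.4, 12.1, 15.1 and 8.22 CPM in RC/RC:*Casp1*KO mice A to D. For these 4 genes WT mouse C and RC/RC mouse B were the highest, and these same mice held the highest *Krt5* of all (6.79 and 8.10 CPM). WT mouse C was also the highest of its group for *Krt8*, *Krt18*, *Krt19*, *Krt20* and *Krt23*, and RC/RC mouse B the highest of its group for *Krt18*, *Krt7*, *Krt19* and *Krt20*.

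**Figure D5:**
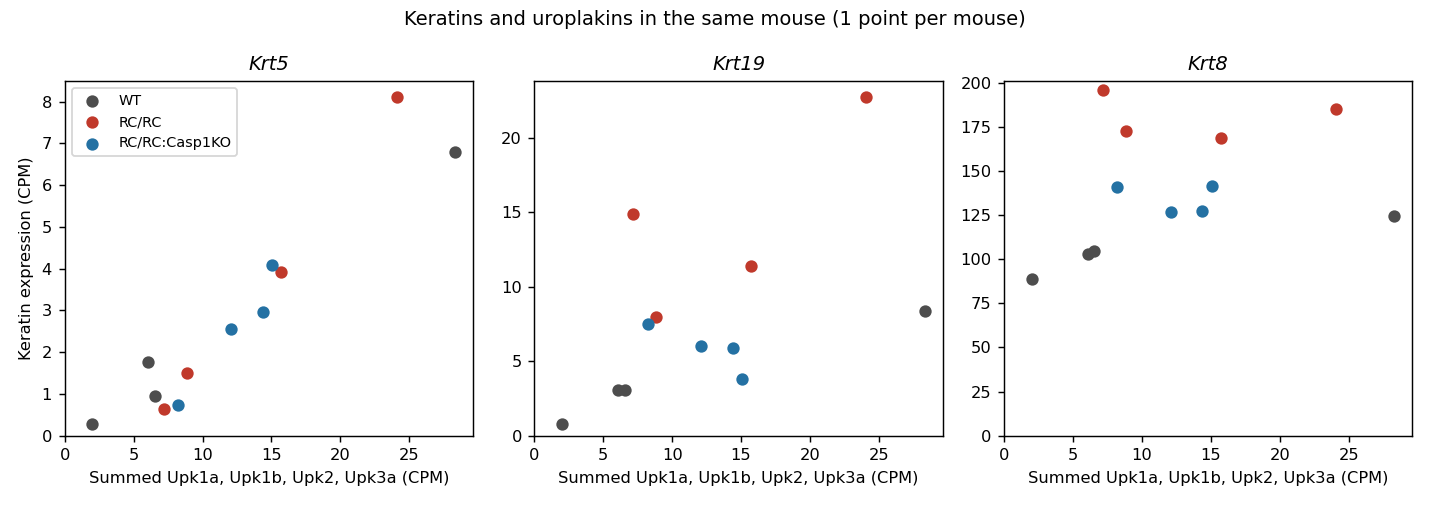
Level of *Krt5*, *Krt19* and *Krt8* (CPM, vertical axes) against the summed level of 4 uroplakin genes (CPM, horizontal axis), 1 point per mouse coloured by group. *Krt5* follows the uroplakins whatever the group, up to 8.10 CPM in RC/RC mouse B, while *Krt8* lies higher in RC/RC mice at low and high uroplakin levels.

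Of 13 urothelial marker genes, 10 were tested and 0 were called in any comparison by edgeR or DESeq2, with 0, 0 and 1 at an unadjusted p under 0.05 in the 3 comparisons, taken in the order in which they were described, as for the other lists. The background for each such count given here was 4457 of 15243, 4889 of 15428 and 3343 of 15346 genes tested at an unadjusted p under 0.05. By DESeq2 it was 3018, 3182 and 1390 genes called. Their median log2 fold changes were 0.35, -0.08 and 0.20, beside -0.02, -0.03 and 0.01 over all genes tested. The whole list summed to 12.3 to 95.9 CPM in WT, 30.8 to 64.6 CPM in RC/RC and 23.9 to 42.7 CPM in RC/RC:*Casp1*KO mice, its most abundant gene was *Psca*, and *Sprr1b* had no read in any mouse. Over the whole list RC/RC mouse C (63.2 CPM) stood close to RC/RC mouse B (64.6 CPM), and its *Psca* was higher (32.5 against 20.8 CPM). The *Krt5* of RC/RC mouse C (0.647 CPM) was nevertheless the lowest of its group. WT mouse C and RC/RC mouse B, the highest in the summed uroplakins, were also left out together, a choice made after seeing the data. RC/RC against WT then gave 4 of 7 called higher, *Krt8* (log2 fold change 0.83), *Krt18* (1.29), *Krt19* (2.28) and *Krt20* (3.61). That fit called 1042 of the 15254 genes tested, higher or lower. Without RC/RC mouse B, RC/RC:*Casp1*KO against RC/RC gave 0 of 7 called, with *Krt8* at -0.39 (adjusted p = 0.0758) and *Krt19* at -0.94 (adjusted p = 0.0845). It called 754 of the 15732 genes tested, higher or lower.

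Keratin filaments are anchored at desmosomes between cells and at hemidesmosomes on the basement membrane, through linker proteins of the plakin family. Of 13 desmosome genes 8 were tested, and edgeR called 0 in any comparison, with 1, 2 and 2 at an unadjusted p under 0.05 and 1, 1 and 0 called by DESeq2. Their median log2 fold changes were -0.02, 0.07 and 0.05. Desmoplakin (*Dsp*), the main anchor of keratin, was at 44.7 ± 13.4 CPM in WT (SD, n = 4), 56.7 ± 14.9 CPM in RC/RC and 57.8 ± 14.3 CPM in RC/RC:*Casp1*KO kidneys. Of 7 hemidesmosome genes edgeR called 1, 1 and 0 and DESeq2 called 1, 2 and 0. An unadjusted p under 0.05 was found for 5, 2 and 1, and the median log2 fold changes were 0.32, -0.12 and -0.11. *Col17a1*, a transmembrane collagen, rose in RC/RC over WT (log2 fold change 1.93 ± 0.43, adjusted p = 0.0179), where 9.76% of all genes tested were called higher. Its mean was 0.217 CPM in WT (lowest mouse 0.0957 CPM) and 0.844 CPM in RC/RC kidneys, so the rise rests on few reads. *Cd151*, a tetraspanin bound to laminin-binding integrins, fell in RC/RC:*Casp1*KO against RC/RC by 0.48 (SE 0.12, adjusted p = 0.0375), where 4.41% were called lower.

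Of 9 plakins and keratin-binding proteins 8 were tested. In RC/RC against WT edgeR called 0 of them, with 2 at an unadjusted p under 0.05 and 1 called by DESeq2. In RC/RC:*Casp1*KO against RC/RC it called 4 higher, the linkers *Dst* (log2 fold change 0.99 ± 0.21, adjusted p = 0.0233) and *Macf1* (0.45), and *Pnn* (0.95) and *Tchp* (0.63), whose proteins bind keratin, and 0 lower. The list had a median of 0.51 there, beside -0.03 over all genes tested, of which 7.23% were called higher. By gene length the median over all genes was -0.04 at 2000 to 4000 bases, 0.11 at 4000 to 8000 and 0.33 at 8000 or more. The part of gene length in the list was not tested. Plectin (*Plec*) did not pass the test there (0.0040 ± 0.14, adjusted p = 0.987). *Evpl*, for envoplakin, was called higher in RC/RC:*Casp1*KO than in WT (0.55 ± 0.11, adjusted p = 0.0483), as were 1.13% of all genes tested.

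Among 14 other intermediate filament genes, 9 were tested and 4 rose in RC/RC over WT, where the list had a median log2 fold change of 0.71. They were vimentin (*Vim*), the filament of mesenchymal cells and injured tubules (log2 fold change 1.87 ± 0.29, adjusted p = 0.00369), *Sync* (2.04) and the lamins *Lmna* (0.60) and *Lmnb1* (0.99). *Vim*, *Lmna* and desmin (*Des*), the filament of smooth muscle and pericytes, fell in RC/RC:*Casp1*KO against RC/RC, by 1.35, 0.59 and 1.16 on the log2 scale. *Vim* was at 44.0 ± 10.7 CPM in WT, 161 ± 66.0 CPM in RC/RC and 63.4 ± 14.1 CPM in RC/RC:*Casp1*KO kidneys. The shares of all genes tested were 9.76% called higher in RC/RC over WT and 4.41% called lower in RC/RC:*Casp1*KO against RC/RC.

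Of 17 regulators of epithelial genes (transcription factors and the splicing regulators *Esrp1* and *Esrp2*, with the basal cell factor *Trp63* among them), 15 were tested in RC/RC against WT and 3 rose, with a median log2 fold change of 0.13 over the list. They were *Sox9*, a factor of duct progenitors and injured tubules (log2 fold change 1.81 ± 0.26, adjusted p = 0.00255), *Elf3*, an epithelium-specific ETS factor (1.07 ± 0.21, adjusted p = 0.0106), and *Klf6* (0.81 ± 0.09, adjusted p = 0.00102). In RC/RC:*Casp1*KO against RC/RC, where 16 were tested, *Klf4*, *Elf3* and *Klf6* fell by 0.88, 0.75 and 0.58, and *Esrp2*, an epithelial splicing regulator, rose by 0.50. Over all genes tested edgeR called 9.76% higher in RC/RC over WT. It called 4.41% lower and 7.23% higher in RC/RC:*Casp1*KO against RC/RC.

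The other cell types of the kidney were followed by their marker genes. Of 10 collecting duct principal cell genes 9 were tested and edgeR called 0 in any comparison, with 7, 2 and 1 at an unadjusted p under 0.05 and 3, 0 and 0 called by DESeq2. Over all genes tested, 4457 of 15243, 4889 of 15428 and 3343 of 15346 had an unadjusted p under 0.05, and DESeq2 called 3018, 3182 and 1390 genes. Their median log2 fold changes were 0.51, -0.21 and 0.38. *Aqp2*, the water channel of these cells and the most abundant of the list, averaged 289 CPM in WT mice, 600.3 CPM in RC/RC mice and 393 CPM in RC/RC:*Casp1*KO mice (log2 fold change 1.05 ± 0.34 in RC/RC over WT, adjusted p = 0.0739). Every RC/RC mouse was above every WT mouse for *Aqp2* and for *Hsd11b2* (0.74, adjusted p = 0.0762). *Tfcp2l1*, a transcription factor of the collecting duct at a level similar to *Aqp2*, was at -0.53 (adjusted p = 0.0582), with every RC/RC mouse below every WT mouse. It was the only tested gene of the list with a negative log2 fold change there. The summed list was 1007 to 1584 CPM in WT, 1522 to 1880 CPM in RC/RC and 1326 to 1855 CPM in RC/RC:*Casp1*KO mice. Mesothelial genes (4 of 7 tested) and epidermal genes (2 to 4 of 9 tested) gave 0 calls by edgeR and DESeq2, with 1 of each list at an unadjusted p under 0.05 in RC/RC:*Casp1*KO against WT and 0 in the other comparisons, and the mesothelial *Calb2* and the epidermal *Krt2* had no read.

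Of 9 tubular injury genes 7 rose in RC/RC over WT (median log2 fold change of the list 1.81), with *Lcn2* (log2 fold change 5.54 ± 0.37), *Timp1* (4.91 ± 0.62) and *Havcr1* (4.90 ± 0.47) the largest, and *Cd24a* fell in RC/RC:*Casp1*KO against RC/RC (-0.76 ± 0.17, adjusted p = 0.0268), where edgeR called 1 of the list, DESeq2 called 6 and 8 had an unadjusted p under 0.05, with a median of -1.08. Of 7 fibroblast genes 7 rose in RC/RC over WT (median 2.06), led by *Col1a1* (3.00 ± 0.34), and 5 fell in RC/RC:*Casp1*KO against RC/RC. The fibroblast list summed to 207 to 277 CPM in WT, 685 to 1631 CPM in RC/RC and 278 to 563 CPM in RC/RC:*Casp1*KO mice, and RC/RC mouse B, with the highest *Krt18*, *Krt19* and *Krt20*, was also its highest. Of 7 leukocyte genes 6 rose in RC/RC over WT (median 1.68), with *Cd3e* (1.95 ± 0.34) the largest. Both edgeR and DESeq2 called 0 of them in RC/RC:*Casp1*KO against RC/RC, where 1 had an unadjusted p under 0.05 (median -0.44), and against WT edgeR called 0, DESeq2 called 1 and 6 had an unadjusted p under 0.05 (median 1.07). The leukocyte list summed to 94.4 to 106 CPM in WT, 140.3 to 215 CPM in RC/RC and 125 to 224 CPM in RC/RC:*Casp1*KO mice. Beside these counts, edgeR called 9.76% of all genes tested higher in RC/RC over WT and 4.41% lower in RC/RC:*Casp1*KO against RC/RC. Whether the keratin differences depend on the genes of these lists was not tested.

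Some genes of other tubule segments fell in RC/RC over WT. By edgeR they were 2 of 10 proximal tubule genes (median log2 fold change of the list -0.73), the glucose transporter *Slc5a2* (log2 fold change -1.23 ± 0.28) and the endocytic receptor *Cubn* (-1.08 ± 0.27), and 3 of 6 loop and distal genes (median -1.01), *Calb1* (-2.17 ± 0.35), *Slc12a3* (-2.03 ± 0.33) and *Pvalb* (-1.40 ± 0.26). DESeq2 called 5 and 3 of these lists. In RC/RC:*Casp1*KO against RC/RC, *Lrp2* (1.52), *Cubn* (1.34) and *Slc12a3* (1.44) rose by edgeR, where DESeq2 called 4 proximal and 1 loop and distal gene. The medians of the 2 lists there were 0.40 and 0.37. All genes of 8000 bases or more had a median of 0.33 there and those of 1000 to 2000 bases of -0.20. The part of gene length in these rises was not tested. *Calb1* was lower in RC/RC:*Casp1*KO than in WT (-1.73 ± 0.35, adjusted p = 0.0449). *Nphs1*, the slit diaphragm gene of podocytes, was the only call by edgeR among 5 podocyte and parietal cell genes, of which DESeq2 called 2, 0 and 1 (-0.62 ± 0.16 in RC/RC over WT).

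The most abundant genes of the remaining lists were *Kap* (proximal tubule), *Umod* (loop and distal tubule), *Cdh16* (general epithelium), *Podxl* (podocytes), *Csf1r* (leukocytes), *Col3a1* (fibroblasts), *Spp1* (tubular injury), *Gpm6a* (mesothelium) and *Krt10* (epidermis). The names in brackets are those of the lists, and the cells that carry these genes were not measured. *Gpm6a* averaged 171 CPM while *Calb2* of its list had no read, and *Krt10* averaged 6.83 CPM while *Krt2* had none. The proximal tubule list summed to a median of 26177 CPM in WT mice, 17996 CPM in RC/RC mice and 22544 CPM in RC/RC:*Casp1*KO mice, with ranges that overlapped.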

How the data were processed

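Kidney RNA of 12 mice was sequenced as poly(A) libraries. The authors deposited 1 table of raw read counts, and the submitters' processing notes name CASAVA 1.8, STAR and mm10 (the counting tool and strand setting are not given in the sources used here). FPKM was computed from these counts, the deposited gene length and the library total. The deposited FPKM (12 columns), group means, fold changes and p-values of the authors were not used. Columns were assigned by name to a group, not to a single sample.

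Each comparison was fitted on its 8 mice with edgeR 4.0.16 in R 4.3.3 (quasi-likelihood test, TMM, filterByExpr, Benjamini-Hochberg over all genes tested, threshold 0.05). Counts differed beyond sampling noise in all 18 pairs of mice of 1 group (chi-square per degree of freedom 15.7 to 128), and mice were taken as replicates. Likeness used genes with a mean of at least 1 CPM. Near copies were sought with BLAST 2.17.0. The tests were tried on simulated counts first. Alternatives were DESeq2 1.42.0, other scalings and filters, a dispersion shared by 12 mice, each mouse left out and, added after seeing the data, removal of the gene length trend (loess, span 0.5) and omission of the WT and the RC/RC mouse with the most uroplakin RNA.

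The 7 genes, the gene lists and the motifs were chosen with earlier results of these data known. Named genes are the 7, *Casp1*, at most 3 called genes of each list and comparison with the largest change, the most abundant gene of each cell type list, the 3 most abundant other keratins and the 3 genes most like each keratin. Other genes named (*Dsp*, *Plec*, *Macf1*, *Lmna*, *Esrp1*, *Esrp2*, *Trp63*, *Krt13*, *Krt2*, *Calb2*, *Sprr1b*, *Epcam*, *Tfcp2l1*, *Hsd11b2*) were chosen after their values were seen. Results for some listed genes are not reported here.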

Additional observations from a re-analysis of the deposited data

Results flagged for a closer look

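*Krt20* in RC/RC:*Casp1*KO mouse D was at 3.23 CPM, far above the other 3 mice of its group (0.385 to 0.522 CPM), with a gap to the nearest of them of 0.952 of the group's range. *Casp1* in WT mouse A was at 2.06 CPM, above the other 3 WT mice (1.29 to 1.41 CPM), with a gap of 0.852 of the range. Both exceed Dixon's 95% critical value for 4 samples. Of the 27 groups of 4 mice examined in this way, chance alone flags about 1 in 20.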

How the results depend on the processing

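No paired analysis was possible because the columns carry mouse numbers and neither the replicate numbers nor the sex given in the labels. Among 363 values of single genes under the alternatives, 318 kept their direction and their side of the threshold, 23 lost and 10 gained a call, and 12 changed sign, all of *Krt5*, *Krt7* or *Krt23*, none of them called by edgeR with all mice. In RC/RC against WT, 1971 genes were called, 3018 with DESeq2, 1042 without WT mouse C and RC/RC mouse B, and 1162 to 2440 with single mice omitted. There *Krt23* stood at 0.000415 without those 2 mice, and with single mice omitted *Krt23* ranged from -0.74 to 0.012 and *Krt5* from -0.29 to 1.79. In RC/RC:*Casp1*KO against RC/RC, 1797 genes were called, 3182 with DESeq2, 993 with library size alone, 754 without RC/RC mouse B, and 438 to 2789 with single mice omitted. Of the 7 keratins, 2 were called lower there, 0 with library size alone and without RC/RC mouse B, 1 with no filter on low counts, with a dispersion shared by 12 mice and with the length trend removed (this and the omission of the mice richest in uroplakins were chosen after seeing the data), and 0 to 3 with single mice omitted. *Krt5* was at 0.37 without RC/RC mouse B and -0.81 to 0.37 with single mice omitted. In RC/RC:*Casp1*KO against WT, 311 genes were called, 1390 with DESeq2, 167 with at least 10 counts in every mouse, and 108 to 547 with single mice omitted. The median of all genes moved from 0.01 to 0.14 there with library size alone, and from -0.02 to -0.12 in RC/RC against WT with the length trend removed. *Krt7* was at 0.11 with library size alone and -0.14 to 0.11 with single mice omitted, where *Krt5* ranged from -0.30 to 1.35. *Casp1* lost its call in RC/RC against WT without the 2 mice (1.07, adjusted p = 0.0891). The causes were not tested, but omitting mice leaves fewer samples. *Krt5*, *Krt20* and *Krt23* rest on few reads (2 to 154 per mouse), which limits their precision.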
